A study of Homo sapiens with 12 samples.

Results

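HCT116 EHF+CDX1 cells were compared with HCT116 CDX1 cells to find which genes differ when EHF is expressed on top of CDX1 in a colorectal cancer line. HCT116 is an established, poorly differentiated human colorectal cancer line that grows as an epithelium-derived culture. The comparison used 6 of the 12 RNA-seq libraries of the series, 3 of each line, chosen by their labels alone. The HCT116 CDX1 line had been infected with a retrovirus encoding CDX1 and GFP, and its GFP-positive cells were collected by sorting. HCT116 EHF+CDX1 cells were made from them by transfection with an EHF plasmid and selection of clones resistant to geneticin. The other 6 libraries came from HCT116 EHF cells, with the same plasmid and no CDX1 virus, and from HCT116 EV cells, with an empty vector, both selected with geneticin. All 4 lines were grown in the same medium. Adding EHF therefore cannot be told apart from geneticin selection and from the choice of clones, and nothing in the labels says whether the 3 libraries of a line came from separate cultures, so that p-values measure the spread between these libraries.

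EHF is an epithelial transcription factor of the ETS family, which binds DNA through a winged helix domain at sites with a GGAA core. CDX1 is a caudal homeobox factor of the intestinal epithelium and binds AT-rich sites. In the colon both factors are found in the epithelium, and caudal factors are known for driving genes of the brush border and of colonic surface antigens such as villin (VIL1) and GPA33. Stem cells at the crypt base are marked by the Wnt-linked genes LGR5, ASCL2 and OLFM4.

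The promoters below belong to genes whose levels differed between the lines and that carry the short motifs counted further on, and they are shown so that the motifs can be seen in place. They were picked from 11 promoters examined, of which 4 (ISX, OLFM4, MX1 and DNAJB1) held none of the letters searched for in those 250 bases. Each is the 250 bases before the gene's start in RefSeq, written 5′ to 3′ on the gene's own strand. Capitals mark, on either strand, TTTAT (caudal) and GGAAGT (ETS) in KRT20, GAAA followed after 2 bases by GAAA (the interferon response element) in IFIT1 and ISG15, and GAA followed after 2 bases by TTC (a heat shock element unit) in HSPA6 and HSPA1A. KRT20 encodes a keratin of differentiated colonocytes, IFIT1 and ISG15 are antiviral effectors, and HSPA6 and HSPA1A are stress-induced HSP70 chaperones.
KRT20 (GRCh38.p14, chr17:40885243-40885492, strand minus): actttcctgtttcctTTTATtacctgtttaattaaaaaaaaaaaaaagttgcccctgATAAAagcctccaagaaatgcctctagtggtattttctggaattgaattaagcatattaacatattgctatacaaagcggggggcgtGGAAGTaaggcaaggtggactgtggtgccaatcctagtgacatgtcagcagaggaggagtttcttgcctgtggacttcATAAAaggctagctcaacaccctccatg
IFIT1 (GRCh38.p14, chr10:89392373-89392622, strand plus): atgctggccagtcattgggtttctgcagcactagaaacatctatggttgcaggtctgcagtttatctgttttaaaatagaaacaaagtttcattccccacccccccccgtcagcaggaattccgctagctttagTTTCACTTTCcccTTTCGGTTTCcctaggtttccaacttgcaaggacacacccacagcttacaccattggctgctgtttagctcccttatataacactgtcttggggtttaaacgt
ISG15 (GRCh38.p14, chr1:1013247-1013496, strand plus): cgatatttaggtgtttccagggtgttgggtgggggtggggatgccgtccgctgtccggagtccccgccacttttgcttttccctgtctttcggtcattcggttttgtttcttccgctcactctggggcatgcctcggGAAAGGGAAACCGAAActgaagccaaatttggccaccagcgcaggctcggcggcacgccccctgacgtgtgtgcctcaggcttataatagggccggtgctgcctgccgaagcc
HSPA6 (GRCh38.p14, chr1:161524290-161524539, strand plus): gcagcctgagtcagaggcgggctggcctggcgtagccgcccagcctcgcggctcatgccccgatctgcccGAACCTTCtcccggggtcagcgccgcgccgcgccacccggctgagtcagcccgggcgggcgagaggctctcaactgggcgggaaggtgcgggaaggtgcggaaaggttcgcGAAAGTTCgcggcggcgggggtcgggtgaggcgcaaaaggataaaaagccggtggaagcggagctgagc
HSPA1A (GRCh38.p14, chr6:31815293-31815542, strand plus): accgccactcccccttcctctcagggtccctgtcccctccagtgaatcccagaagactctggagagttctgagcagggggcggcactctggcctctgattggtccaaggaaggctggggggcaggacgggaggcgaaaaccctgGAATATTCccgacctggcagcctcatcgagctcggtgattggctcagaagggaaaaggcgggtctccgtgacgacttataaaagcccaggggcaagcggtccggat

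The added factor was present as labelled. EHF, at chr11:34621093-34663288, stood at 17110, 19890 and 19120 CPM (reads scaled to library size, TMM-normalized) in the 3 HCT116 EHF+CDX1 libraries and at 12, 12.99 and 11.89 CPM in the 3 HCT116 CDX1 libraries. HCT116 EV cells held between 236 and 335 CPM of EHF, so the HCT116 CDX1 libraries lay below all 9 others. The CDX1 level was not matched between the lines. CDX1 mRNA stood at 5108, 5639 and 5509 CPM in HCT116 EHF+CDX1 cells and at 487, 559 and 529 CPM in HCT116 CDX1 cells, a log2 fold change of 3.37 ± 0.18 (SE; adjusted p = 3.17e-08, edgeR quasi-likelihood test against no change). Every difference described here is thus a difference between cells with both factors, CDX1 at the higher level, and cells with CDX1 at the lower level, and the share of either factor was not tested. The epithelial markers EPCAM, KRT8, KRT18 and CDH1 were at 105 CPM or more in each of the 6 libraries.

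Of 15853 genes tested, 3529 (22.3%) were higher and 2970 (18.7%) lower in HCT116 EHF+CDX1 than in HCT116 CDX1 cells, by edgeR's glmTreat against a 1.5-fold change at an adjusted p of 0.05. Such genes are said below to have risen, fallen or been called. These shares are the background against which each gene list is read. When libraries were scaled by total counts instead of by TMM, the median of all genes shifted from 0.04 to 0.39 on the log2 scale and the calls became 5074 higher and 1765 lower, which is 74.2% higher in place of 54.3%. The TMM factor was between 0.800 and 0.845 in the HCT116 CDX1 libraries and between 1.06 and 1.07 in the HCT116 EHF+CDX1 libraries. The mitochondrially encoded genes took 4.49 to 5.84% of counts in the former and 10.7 to 12.2% in the latter, and HCT116 EV replicate 3, at 18.5%, stood apart from its own replicates, at 7.84 and 8.0%. Their part in the results was not tested. Totals ran from 13523007 counts in HCT116 EHF+CDX1 replicate 3 to 57133355 in HCT116 CDX1 replicate 1, where 3 counts correspond to 0.207 and 0.0657 CPM.

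The genes called fell into different patterns over the 4 lines. Among the 2970 genes that fell, the 3 HCT116 CDX1 libraries lay above all 9 others in 2720 (91.6%), while the HCT116 EHF+CDX1 libraries lay below all 9 others in 316 (10.6%). Among the 3529 genes that rose, the HCT116 CDX1 libraries lay below all 9 others in 2670 (75.7%), and the HCT116 EHF+CDX1 libraries above all 9 others in 698 (19.8%), with 232 genes in both sets. Over all tested genes, HCT116 CDX1 libraries lay above the 9 others in 27.6% and below them in 25.8%, and HCT116 EHF+CDX1 libraries in 6.06% and 4.06%. The genes are described below by whether it was the line with both factors or the line with CDX1 alone that stood apart.

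**Figure D1:**
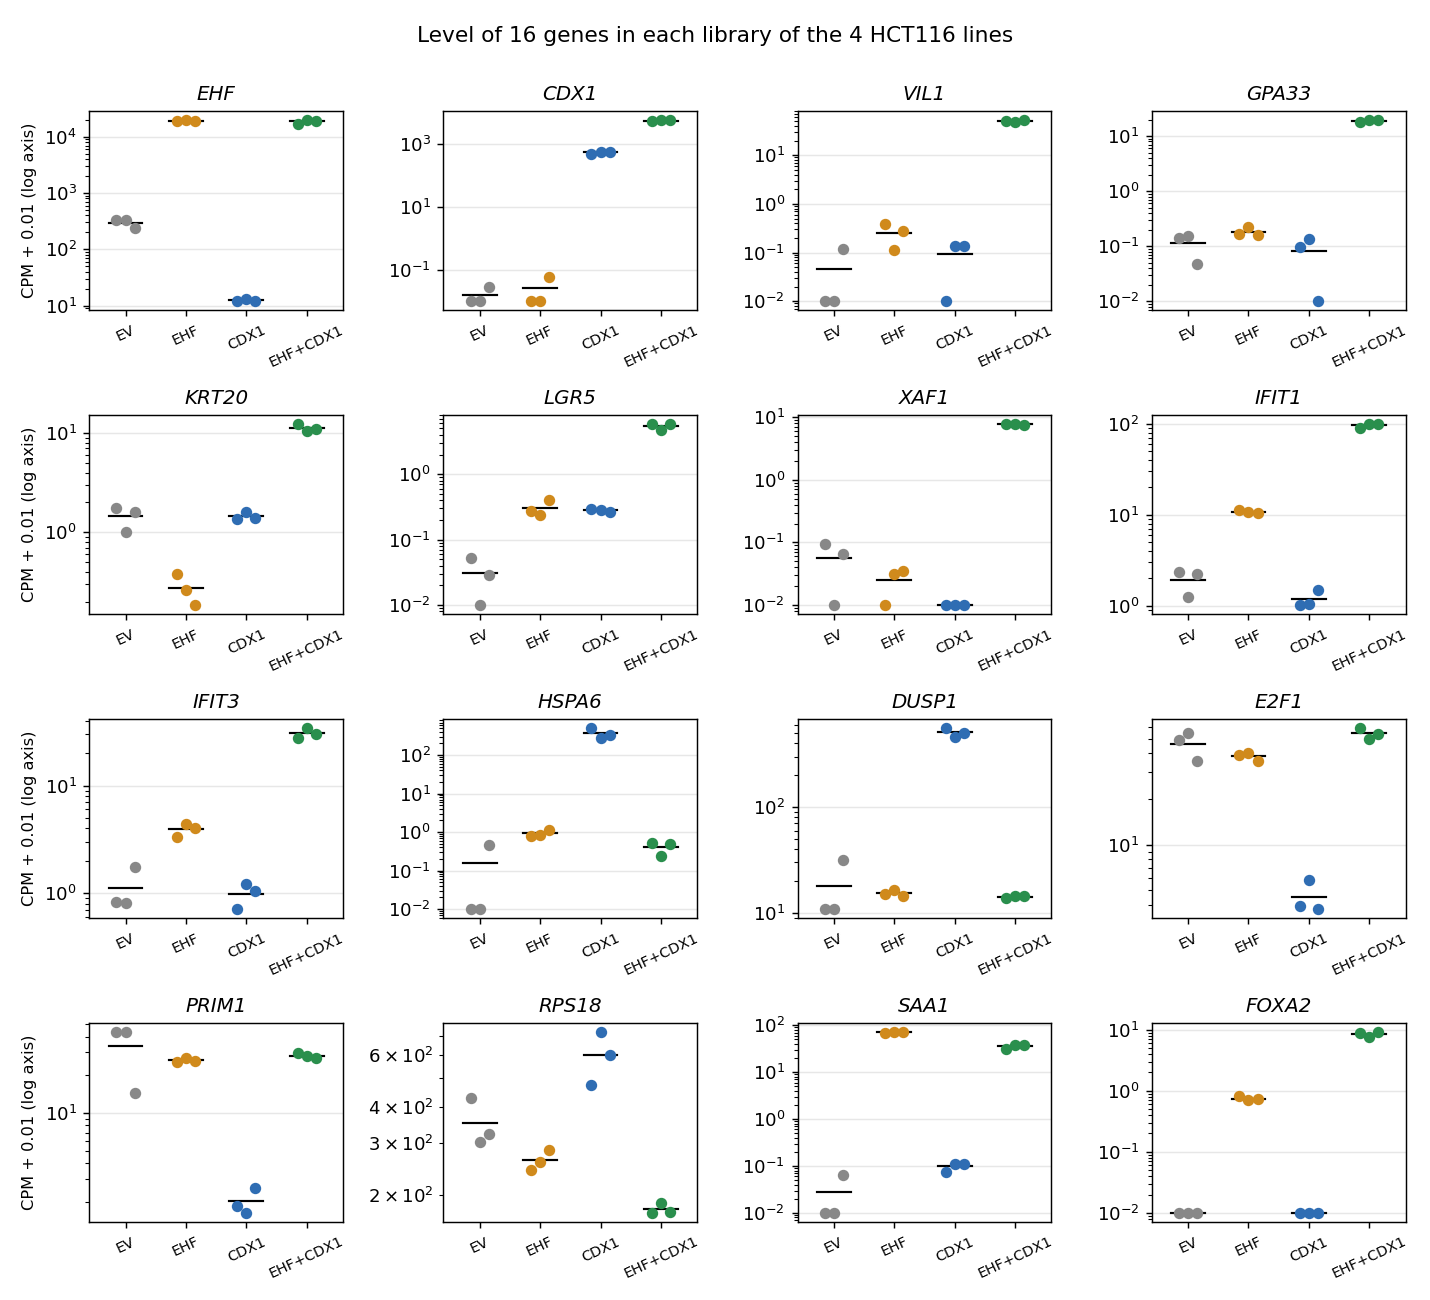
Level of 16 genes in each library, in CPM + 0.01 on a log axis, with a point per library and a bar at the mean of each line's 3 libraries. EHF+CDX1 libraries stand apart for VIL1, GPA33, KRT20, LGR5, XAF1, IFIT1 and IFIT3, CDX1 libraries stand apart for HSPA6, DUSP1, E2F1 and PRIM1, RPS18 is highest in CDX1 and lowest in EHF+CDX1 libraries, and SAA1 and FOXA2 are higher in both lines with the EHF plasmid than in the other lines.

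Genes of colonic differentiation were higher in HCT116 EHF+CDX1 cells. Of 20 tested genes on a list of colonocyte surface and keratin differentiation genes, 16 rose and 1, the claudin CLDN15, fell, with a median log2 fold change of 2.49 beside 0.04 over all genes. In 11 of the 16 the HCT116 EHF+CDX1 libraries lay above all 9 others. VIL1, which bundles actin in microvilli, was read at 50.8, 47.6 and 53.1 CPM in HCT116 EHF+CDX1 cells and at 0, 0.126 and 0.129 CPM in HCT116 CDX1 cells (log2 fold change 9.23 ± 0.48, adjusted p = 2.95e-08, edgeR). HCT116 EHF cells, with 0.105 to 0.372 CPM, were also near the limit of detection. GPA33, a colon surface antigen, was at 18.2, 19.3 and 19.6 CPM against 0.0876, 0.126 and 0 CPM (7.98 ± 0.41, adjusted p = 2.95e-08, edgeR). CDH17, the liver-intestine cadherin, was at 33.5, 30.9 and 30.9 CPM against 0.197, 0.354 and 0.154 CPM (7.07 ± 0.31). The cell adhesion antigens CEACAM5 and CEACAM6 had mean levels of 11.5 and 8.37 CPM against 0.0494 and 0.0330 CPM. None of the HCT116 EHF or HCT116 EV libraries exceeded 0.378 CPM for VIL1, GPA33, CDH17, CEACAM5 or CEACAM6.

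KRT20 took another course over the lines. It was at 12.35, 10.48 and 10.85 CPM in HCT116 EHF+CDX1 cells and at 1.36, 1.59 and 1.39 CPM in HCT116 CDX1 cells, a log2 fold change of 2.96 ± 0.23 (adjusted p = 5.10e-07, edgeR). HCT116 CDX1 and HCT116 EV cells overlapped, and HCT116 EHF cells, at 0.175 to 0.372 CPM, were below HCT116 EV cells. KRT20 thus rose where EHF was added to CDX1 and fell where EHF was added to the empty vector line. The microvillus adaptor EPS8L3 had the same directions, with means of 15.9 against 1.25 CPM with CDX1 and 0.201 against 4.49 CPM without it.

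Of 21 brush border and enterocyte genes tested, 8 rose and 3 fell (ANPEP, CA2 and MYO1D), with a median of 0.48. Those that rose were led by VIL1, the peptide transporter SLC15A1 (3.70 ± 0.49), EPS8L3 (3.66 ± 0.38) and the brush border myosin MYO1A (3.47 ± 0.33). For SLC15A1 the HCT116 EV and HCT116 EHF libraries, at 3.79 to 12.2 CPM, were not below the HCT116 EHF+CDX1 libraries. The count table held 46 genes of that list, and the rest had too few reads to be tested. Among the 11 goblet cell genes tested, 6 rose and 3 fell. AGR2, a disulfide isomerase of mucin-producing cells, had 2 reads over the HCT116 CDX1 libraries and a mean of 8.30 CPM in HCT116 EHF+CDX1 cells, a ratio of 534 with a counting interval of 147 to 4412. The trefoil factor TFF3 had no read in HCT116 CDX1 cells and was at least 27.9-fold higher, counted against 3 reads over the line, at a mean of only 0.644 CPM. The master regulator of goblet cells SPDEF did not pass the test (0.55), and the gastric mucin MUC5AC fell (-2.78). Of 14 enteroendocrine and tuft cell genes, 4 rose (2 with limma voom) and 2 fell, with the tuft cell kinase DCLK1 at 4.24 CPM against 0.0326 CPM and the peptide hormone PYY lower, at 0.365 CPM against 2.73 CPM.

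Stem cell genes rose alongside the differentiation genes. Of 24 tested, 15 rose and 1 (MSI1) fell, with a median of 1.31. The HCT116 EHF+CDX1 libraries lay above all 9 others for 7 of the 15, and the HCT116 CDX1 libraries below all 9 others for 8. LGR5, a receptor for R-spondins, was at 5.87, 4.78 and 5.87 CPM in HCT116 EHF+CDX1 cells. In HCT116 CDX1 cells it was at 0.285, 0.278 and 0.257 CPM (4.31 ± 0.29, adjusted p = 1.59e-07, edgeR). LGR5 was also called higher in HCT116 EHF than in HCT116 EV cells, with 48 against 2 reads. ASCL2, a stem cell transcription factor, had 1 read over the HCT116 CDX1 libraries and 926 over the HCT116 EHF+CDX1 libraries, a ratio of 924 with a counting interval of 165 to 36520. OLFM4, a secreted crypt-base glycoprotein, had 2 and 785 reads, a ratio of 391.5 with an interval of 108 to 3239. LEF1, a nuclear partner of beta-catenin, had 1 and 521 reads, a ratio of 520 with an interval of 92.9 to 20570, and SMOC2 had means of 3.24 against 0.116 CPM. SOX9, a factor of the crypt base, did not pass the test, with 179.7, 161.8 and 165.2 CPM against 170.0, 160.3 and 135.0 CPM, and the ranges of the lines overlapped. HCT116 EV libraries held 57.1 to 65.7 CPM of SOX9.

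The transcription factors of the intestine moved in both directions. Of 23 tested, 8 rose and 8 fell, and 2 of the 8 that rose are EHF and CDX1 themselves. FOXA2, an endoderm pioneer factor, had no read in the HCT116 CDX1 and HCT116 EV libraries, 0.693 to 0.798 CPM in HCT116 EHF cells, and 8.70, 7.65 and 9.33 CPM where both factors were present, which is at least 344.5-fold above HCT116 CDX1 cells. ISX, an intestinal homeobox factor, was at 3.55, 3.76 and 3.46 CPM against 0, 0.152 and 0.0257 CPM (5.91 ± 0.59), and NR1I2, a nuclear receptor for xenobiotics, rose from no read to a mean of 0.743 CPM, at least 34.6-fold. CDX2 differed by less, with 59.02, 55.92 and 58.88 CPM against 37.3, 42.1 and 40.3 CPM. It did not pass the 1.5-fold test (0.54 ± 0.14). Its groups did not overlap, which held for 80.3% of all tested genes. GATA6 did not pass the 1.5-fold test either (-0.35 ± 0.11). ELF3, an epithelial ETS factor of the same subfamily as EHF, fell (-1.26 ± 0.20), a call lost with limma voom (-0.86, adjusted p = 0.235). Of 24 ETS genes tested, 6 rose, EHF included, and 8 fell, and with limma voom 2 rose. ETS1 fell most, to 18.4, 18.6 and 15.5 CPM from 170, 142 and 138 CPM, although HCT116 EHF cells had more of it than HCT116 EV cells (17.7 and 4.36 CPM).

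The interferon-stimulated genes, which encode antiviral effectors normally switched on by interferon, formed the list with the highest median. Of 57 tested, 47 rose and 0 fell, with a median of 2.72, and in 44 of the 47 the HCT116 EHF+CDX1 libraries lay above all 9 others. IFIT1 was at 90.2, 99.6 and 98.6 CPM in HCT116 EHF+CDX1 cells and at 1.01, 1.04 and 1.47 CPM in HCT116 CDX1 cells (6.36 ± 0.21, adjusted p = 1.76e-09, edgeR). IFIT1 was also higher in HCT116 EHF cells, at 10.5 to 11.2 CPM, than in HCT116 EV cells, at 1.23 to 2.33 CPM. XAF1, an inhibitor of XIAP, had no read in HCT116 CDX1 cells and was at least 319-fold higher in HCT116 EHF+CDX1 cells, at 7.77, 7.71 and 7.46 CPM. The GTPase MX2 was at 10.5, 11.7 and 10.7 CPM against 0, 0.126 and 0.0257 CPM, and IFI44L was at least 173-fold higher. ISG15, the ubiquitin-like modifier whose promoter is shown above, was at 339, 380 and 381 CPM against 62.5, 83.4 and 72.1 CPM. The count of 0 lower became 1 with limma voom and without HCT116 CDX1 replicate 3, and 2 in edgeR's test against no change. The 10 that did not pass the test included GBP2 (-0.85), ISG20 (-0.76) and the double-stranded RNA kinase EIF2AK2 (0.73). With HCT116 EHF over HCT116 EV cells, 12 of the 57 rose and 0 fell, with a median of 0.30, beside backgrounds of 5.68% higher and 2.65% lower.

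Genes upstream of that response were less uniform. Of 30 interferon sensing and signalling genes, 12 rose and 2 fell, IFNLR1 among them (7 without HCT116 EV replicate 3), with a median of -0.06 that became 0.30 under total count scaling. The type III interferon genes IFNL1 and IFNL3 rose from means of 0.0667 and 0.112 CPM to 1.28 and 1.10 CPM, the kinase IKBKE from 0.747 to 9.84 CPM, and the transcription factor IRF8 from 3 reads to 467, a ratio of 155 with an interval of 52.8 to 756. The signal transducer STAT2 (-0.83) and the receptor gene IFNAR1 (0.12) did not pass the test. Among 22 MHC class I presentation genes, 8 rose and 2 fell, and none fell with total counts. The immunoproteasome subunits PSMB9 (3.81 ± 0.20) and PSMB8 (3.01 ± 0.28), the transactivator NLRC5 (2.57 ± 0.22) and the peptide trimmer ERAP2 (2.12 ± 0.42) led those that rose, HLA-G was among those that fell, and HLA-B, HLA-C and B2M did not pass. Of 30 NF-kB target and acute-phase genes, 9 rose and 10 fell. Those that rose were led by the serum amyloid genes SAA1 (8.61 ± 0.24) and SAA2 (5.78 ± 0.41) and by the chemokines CXCL10 and CCL20 (3.61 ± 0.81), the first with 2 reads over the HCT116 CDX1 libraries and a ratio of 43.4 with an interval of 11.7 to 364, and those that fell included the feedback inhibitors TNFAIP3 and NFKBIA.

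Heat shock genes, which encode chaperones that refold proteins, were far lower in HCT116 EHF+CDX1 than in HCT116 CDX1 cells. Of 26 tested, 23 fell and 0 rose, with a median of -2.88, and in all 23 the HCT116 CDX1 libraries lay above all 9 others. No alternative run, the edgeR test against no change and DESeq2 included, called a gene of this list higher. HSPA6 was at 0.507, 0.228 and 0.484 CPM against 513, 284 and 339 CPM (-9.92 ± 0.53, adjusted p = 3.47e-08, edgeR), and the largest value among HCT116 EV and HCT116 EHF libraries was 1.15 CPM. HSPA1B was at 160, 143 and 116 CPM against 14960, 10370 and 11980 CPM, while HCT116 EV and HCT116 EHF libraries held 140 to 157 CPM. HSPA1A followed it (-7.26 ± 0.39), but HSPA1A and HSPA1B are near-identical and reads counted as unique may be split unevenly between them. The small heat shock protein CRYAB was at 0.175, 0.228 and 0.138 CPM against 49.97, 29.05 and 29.54 CPM. HSPA1L, HSPA7 and ZFAND2A, a zinc finger gene of the same stress response, were also among the 10 genes with the lowest fold changes, counted over called genes with a mean of at least 1 log2 CPM over the 12 libraries. The transcription factor HSF1 itself did not pass the test (-0.37 ± 0.09).

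Immediate-early genes, transcribed within minutes of a growth or stress signal, gave the same arrangement of lines. Of 32 tested, 23 fell and 0 rose, with a median of -2.30. DUSP1, a phosphatase of MAP kinases, was at 13.8, 14.5 and 14.4 CPM against 561, 464 and 502 CPM, with 10.9 to 31.7 CPM in HCT116 EV and HCT116 EHF libraries. FOS was at 19.79, 20.97 and 20.52 CPM against 751, 514 and 472 CPM, FOSB had a log2 fold change of -4.58 ± 0.72 and the orphan receptor NR4A3 one of -4.76 ± 0.27. HCT116 EV replicate 3 was above its own replicates for DUSP1, FOS and FOSB. Genes of the unfolded protein and amino acid stress responses fell in 19 of 35 cases and rose in 2 (PSPH and CRELD2), with a median of -1.0. The stress factor ATF3 (-3.16 ± 0.40), DDIT3 (-2.48 ± 0.65), the co-chaperone DNAJB9 (-2.30 ± 0.39) and the endoplasmic reticulum chaperone HSPA5, at 1335, 1353 and 1418 CPM against 7192, 5778 and 7028 CPM, led the list. In 18 of the 19 that fell the HCT116 CDX1 libraries lay above all 9 others. With limma voom 8 genes of the list were called lower. GADD45G, RASD1 and SNAI2, a repressor of E-cadherin, completed the 10 lowest genes, with means of 0.973, 0.529 and 0.485 CPM against 88.9, 46.0 and 25.2 CPM.

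DNA replication genes were higher in HCT116 EHF+CDX1 cells, and HCT116 CDX1 cells were again the line that stood apart. Of 50 tested, 44 rose and 0 fell, with a median of 2.19, and in 40 of the 44 the HCT116 CDX1 libraries lay below all 9 others. E2F1, a transcription factor of S phase genes, was at 58.9, 49.6 and 53.8 CPM against 3.92, 5.81 and 3.76 CPM (3.59 ± 0.20, adjusted p = 3.98e-08, edgeR). HCT116 EHF libraries held 35.7 to 40.4 CPM and HCT116 EV libraries 35.5 to 54.3 CPM of E2F1. The primase subunit PRIM1, at 29.80, 28.01 and 26.95 CPM against 1.82, 1.62 and 2.55 CPM (3.83 ± 0.37), and the helicase subunit GINS2 (3.63 ± 0.43) were also lowest in HCT116 CDX1 cells. CCNE1, the cyclin of S phase entry, was among the 6 that did not pass (-0.74), and 1 gene of this list and 1 mitosis gene were lower in edgeR's test against no change. Of 50 mitosis genes, 27 rose and 0 fell, with a median of 1.29, led by the kinetochore subunits SPC24 (3.73 ± 0.47) and SPC25 (3.10 ± 0.49), the mitotic kinase AURKB (2.45 ± 0.38) and HMMR (2.28 ± 0.40). The mitosis count ranged from 12 in the test against a 2-fold change to 40 in the test against no change and without HCT116 EV replicate 3. In HCT116 EV replicate 3 the median level of the mitosis list was -1.13 from the HCT116 EV mean on the log2 scale, beside 0.55 in each of the other HCT116 EV libraries.

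Cytosolic ribosomal protein genes were lower in HCT116 EHF+CDX1 cells and took part in both patterns. Of 75 tested, 64 fell and 0 rose, with a median of -1.11. In 56 of the 64 the HCT116 CDX1 libraries lay above all 9 others, and in 55 the HCT116 EHF+CDX1 libraries lay below all 9 others. RPS18 was at 174, 187 and 175 CPM against 475, 722 and 601 CPM, with 302 to 428 CPM in HCT116 EV cells and 244 to 285 CPM in HCT116 EHF cells. RPL39, RPL9 and RPS27 had log2 fold changes between -1.90 and -1.76. The call count depended on processing, since 35 of 75 fell under total count scaling and 16 with limma voom, with 0 higher under every alternative run. Many ribosomal protein genes have processed pseudogenes, and reads shared with them were not counted. Clustered histone genes fell in 10 of 17 cases, with a median of -1.73, led by H2BC5, H1-2, H2AC18 and H2BC21 (-2.88 to -2.76), and of 22 nuclear and small non-coding RNA genes 10 fell and 4 rose. GAS5, RN7SK and SNORD3A were among those that fell and SNORA73B among those that rose. Most histone mRNAs lack a poly(A) tail and many of the small RNAs do too, so that their counts in libraries labelled as polyA RNA depend on the selection of that tail. Of 13 mitochondrially encoded genes 4 rose and 0 fell, with a median of 0.87. This count was 8 with total counts, 11 with limma voom and 10 without HCT116 EV replicate 3.

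**Figure D2:**
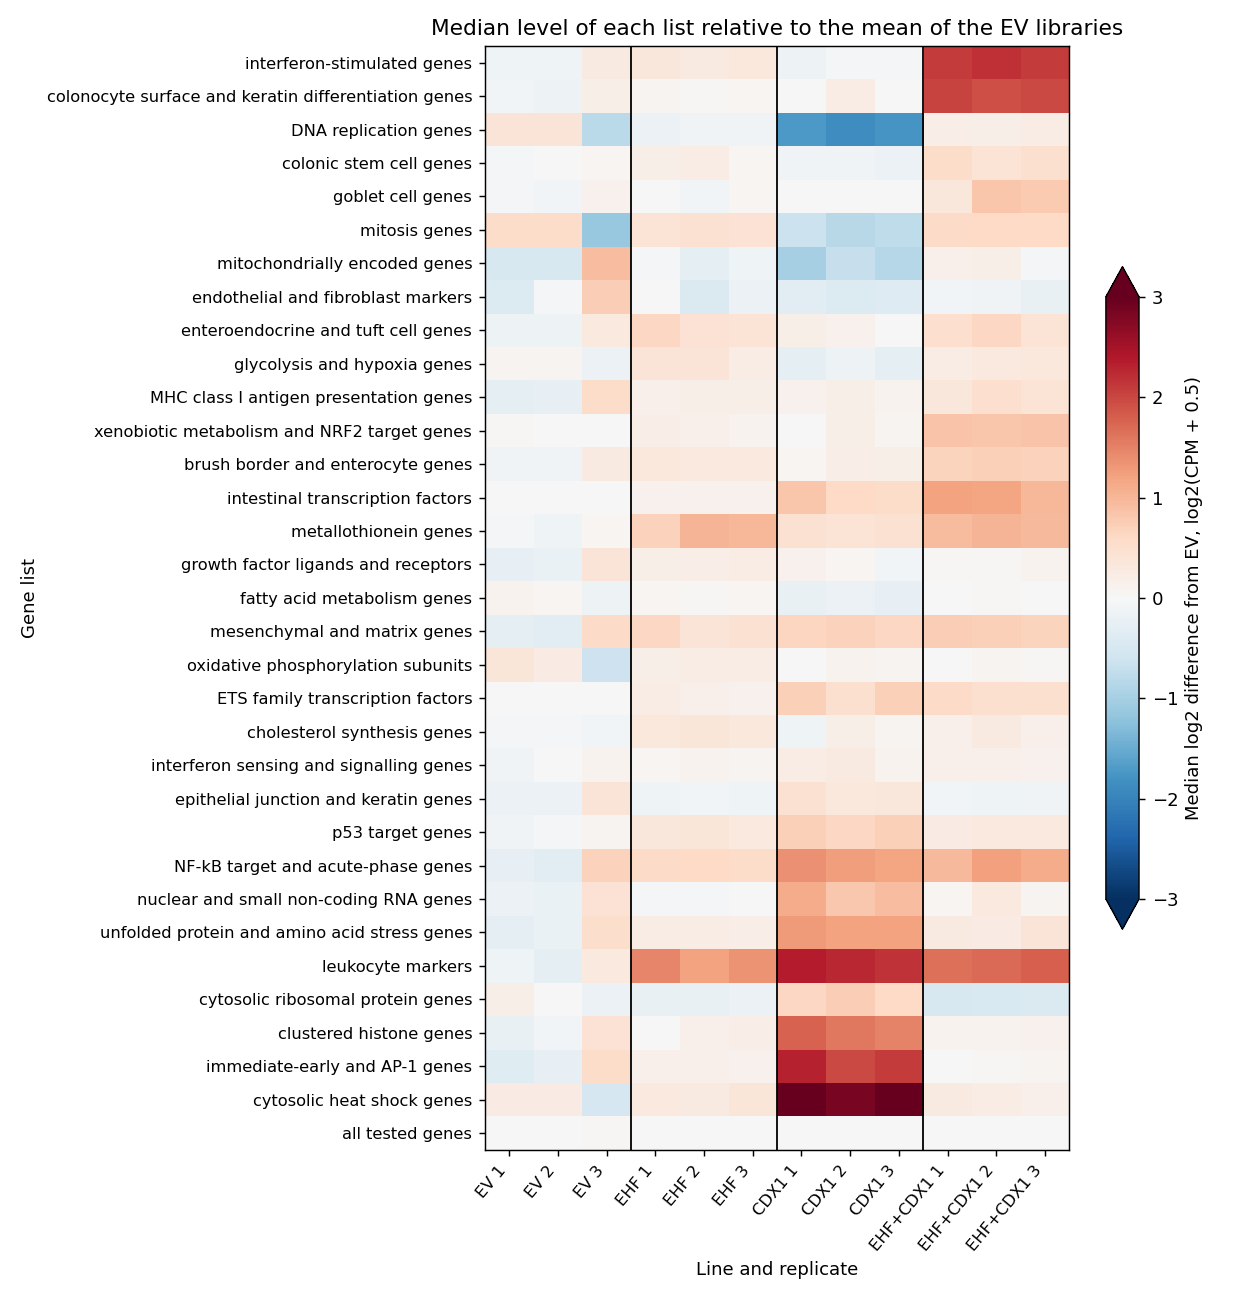
Median level of each gene list in each library, as the log2 difference from the mean of the 3 EV libraries on the log2(CPM + 0.5) scale, with the colour scale ending at -3 and 3. EHF+CDX1 libraries are high for interferon-stimulated genes (2.10 to 2.20) and colonocyte surface genes (1.94 to 2.03), and CDX1 libraries are high for heat shock genes (2.84 to 3.29) and low for DNA replication genes (-1.85 to -1.73).

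Of 75 nuclear-encoded oxidative phosphorylation subunits, 3 rose (ATP5F1D, NDUFV1 and ATP5PD) and 1 fell (NDUFS4), with a median of 0.03. Without HCT116 EV replicate 3, 8 rose and 6 fell, and ATP5PD also lost its call when any of the compared libraries other than HCT116 CDX1 replicate 2 was left out. Cholesterol synthesis genes rose in 5 and fell in 3 of 25 cases (median -0.05). The sterol cyclase LSS (2.16 ± 0.11) was higher and HSD17B7 (-1.90 ± 0.11) lower. In all 5 that rose the HCT116 CDX1 libraries lay below all 9 others, and in all 3 that fell above them. Fatty acid metabolism genes rose in 12 and fell in 3 of 39 cases (median 0.18). ACOT2 led, with 2 reads over the HCT116 CDX1 libraries against 70 (ratio 34.9, interval 9.31 to 294). ACACB (3.13 ± 0.17), ACAA2 (2.72 ± 0.43) and HADH (2.02 ± 0.25) came next. In 10 of the 12 that rose the HCT116 CDX1 libraries lay below all 9 others. The HCT116 EHF+CDX1 libraries lay above all 9 others in 2 of the 12. Of 36 glycolysis and hypoxia genes 10 rose and 7 fell (median 0.54), and 19 rose and 4 fell with total counts. The prolyl hydroxylase P4HA2 (-3.36 ± 0.22), ANKRD37 (-2.65 ± 0.39) and ADM (-2.0 ± 0.27) were lower and the enolase ENO2 (1.92 ± 0.18) higher. Of 29 p53 target genes 4 rose and 11 fell (median -0.57), while 5 rose and 5 fell with total counts and 6 fell with limma voom. They were led by SESN2 (-2.09 ± 0.35) and SPATA18 (-2.03 ± 0.39) below and FDXR (1.71 ± 0.11) and TP53I3 (1.64 ± 0.13) above. In 10 of the 11 p53 target genes that fell the HCT116 CDX1 libraries lay above all 9 others.

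Of 41 xenobiotic metabolism and NRF2 target genes, 17 rose and 10 fell (median 0.50), and 6 fell with limma voom. In all 10 that fell the HCT116 CDX1 libraries lay above all 9 others, and the lowest log2 fold change was -3.70. The summed level of the list was lower in HCT116 EHF+CDX1 libraries, at 6393 to 6681 CPM, than in HCT116 CDX1 libraries, at 19410 to 20380 CPM. HCT116 EV and HCT116 EHF libraries held 4229 to 6710 CPM. The aldehyde dehydrogenase ALDH1A1 was at 38.22, 39.05 and 45.96 CPM in HCT116 EHF+CDX1 cells and at 0.1095, 0 and 0 CPM in HCT116 CDX1 cells, with no library above 0.3015 CPM in the other lines. The glucuronosyltransferases UGT1A10, UGT1A6 and UGT1A1 had no read in HCT116 CDX1 cells and means of 10.1, 3.56 and 2.30 CPM in HCT116 EHF+CDX1 cells, although these genes share exons and cannot be fully separated. Among 7 metallothionein genes MT1G (3.26 ± 0.52) and MT1F (2.85 ± 0.36) rose and the regulator MTF1 (-0.81 ± 0.09) fell, a call lost with limma voom and with total counts. Growth factor ligands and receptors rose in 13 and fell in 7 of 34 cases (median 0.20), with the binding proteins IGFBP4, at 3 against 1166 reads (ratio 388, interval 132 to 1883), and IGFBP3 (6.53 ± 0.66) higher, and BMP2 (-3.20 ± 0.50) and FGFR1 (-2.71 ± 0.24) lower. Mesenchymal and matrix genes rose in 15 and fell in 13 of 48 cases (median 0.17), with TGFBI (7.39 ± 0.35), TNC (4.86 ± 0.51) and COL4A2 (4.05 ± 0.74) higher and SNAI2 (-5.56 ± 0.31) lower. In 12 of the 13 that fell the HCT116 CDX1 libraries lay above all 9 others. Epithelial junction and keratin genes rose in 9 and fell in 10 of 49 cases (median -0.28), or fell in 6 with total counts. Both shares were near those over all tested genes (22.3% and 18.7%). The claudins CLDN1, at 13.6 CPM against 0.101 CPM, and CLDN2, at 33.9 CPM against 1.21 CPM, were higher. So were the desmosomal PKP1 (6.23 ± 0.41) and KRT23 (4.38 ± 0.22). KRT23 was higher still in HCT116 EV libraries, at 28.25 to 51.93 CPM beside 20.25 to 22.78 CPM in HCT116 EHF+CDX1 libraries. In 9 of the 10 that fell the HCT116 CDX1 libraries lay above all 9 others, and the lowest log2 fold change was -2.91.

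Markers of other cell types were few. Of 12 leukocyte markers 6 had enough reads to be tested, and their summed level lay between 55.7 and 61.7 CPM in HCT116 EHF+CDX1 libraries, between 92.5 and 101.8 CPM in HCT116 CDX1 libraries, between 40.2 and 42.1 CPM in HCT116 EHF libraries and between 2.84 and 12.6 CPM in HCT116 EV libraries. CD68, a lysosomal protein also made outside leukocytes, was at means of 23.3 CPM in HCT116 EHF+CDX1 and 81.3 CPM in HCT116 CDX1 cells, and made up most of the sum in the latter. LYZ (lysozyme), which intestinal epithelium also secretes, rose, with 19.4, 18.5 and 17.8 CPM against 3 reads over the HCT116 CDX1 libraries (ratio 778, interval 266 to 3777), and CD68, CD14 and CD79A fell. The pan-leukocyte marker PTPRC was not among the genes with enough reads to test. Of 12 endothelial and fibroblast markers 3 were tested and 1, COL1A1, fell, at 36.6 CPM against 185.5 CPM. The part of other cells in these results was not tested.

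A small set of genes was read in HCT116 EHF+CDX1 cells and almost nowhere else. In all, 24 genes had at least 1 CPM in each of the 3 HCT116 EHF+CDX1 libraries and at most 3 reads over the 9 others together, while the same limits gave 3 genes for HCT116 CDX1, 1 for HCT116 EV and 0 for HCT116 EHF cells. These limits were set after the values had been seen. The 24 included KCNE3, a potassium channel subunit of the colon, at 9.45, 9.30 and 11.8 CPM with no read elsewhere, AUTS2 at 15.2, 14.6 and 17.1 CPM with 1 read elsewhere, and the acetyl-CoA synthetase ACSS1 at 19.6, 20.9 and 20.9 CPM with 3 reads elsewhere. They also held the mitochondrial transhydrogenase NNT (629 reads against 1), the zinc finger genes ZNF260 (283 against 0) and ZNF486 (284 against 2) and the endotoxin receptor TLR4 (197 against 0). TXNIP, an inhibitor of thioredoxin, was at 39.0, 39.9 and 47.0 CPM against 0.0438, 0.0505 and 0 CPM, and LRATD1 at 13.1, 13.4 and 13.5 CPM against 1 read over the HCT116 CDX1 libraries. 

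The EHF difference was also measured without CDX1, in HCT116 EHF over HCT116 EV cells. Both comparisons come from a single fit and share its estimate of the spread, but no library stands in both contrasts. There 901 genes (5.68%) were higher and 420 (2.65%) lower, which rose to 1501 higher without HCT116 EV replicate 3. Of the 3529 genes higher with both factors, 340 (9.63%) were also higher in HCT116 EHF cells, and 137 (3.88%) were lower. These are 37.7% of the 901 and 32.6% of the 420, beside 22.3% of all tested genes. Of the 2970 genes lower with both factors, 72 (2.42%) were also lower in HCT116 EHF cells, which is 17.1% of the 420, and 171 (5.76%) were higher. The share lower in both is thus near the background of 2.65%. A test of the difference between both EHF effects (edgeR quasi-likelihood, adjusted p of 0.05, against no difference) was passed by 4786 genes with a larger and 4493 with a smaller value where CDX1 was present.

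Genes at the head of the shared set were higher in both lines with the EHF plasmid than in the lines without it. KRTAP9-4, a keratin-associated protein gene, had no read in HCT116 CDX1 and HCT116 EV cells and was at 12.4, 13.6 and 13.7 CPM in HCT116 EHF+CDX1 and 16.3, 14.5 and 14.1 CPM in HCT116 EHF cells. SAA1, an acute-phase apolipoprotein, was at 31.67, 37.46 and 38.22 CPM and at 68.6, 71.8 and 73.2 CPM in these lines, against at most 0.103 CPM in the others. VSNL1, a neuronal calcium sensor, was at 37.7 to 38.9 CPM and 57.3 to 58.8 CPM, with no library of the other lines above 0.3445 CPM. EHF and FOXA2 completed the 5 highest by summed rank. The 5 lowest were BAMBI, a decoy receptor of TGF-beta signalling, the serotonin receptor HTR7, NKPD1, ZNF426 and ZNF550. BAMBI was at 8.84, 7.53 and 5.94 CPM against 44.8, 31.6 and 35.6 CPM in HCT116 CDX1 cells and at 6.76 to 9.41 CPM against 99.7 to 105 CPM in HCT116 EV cells. These genes met the rule by passing in both comparisons, so that both directions are a description.

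**Figure D3:**
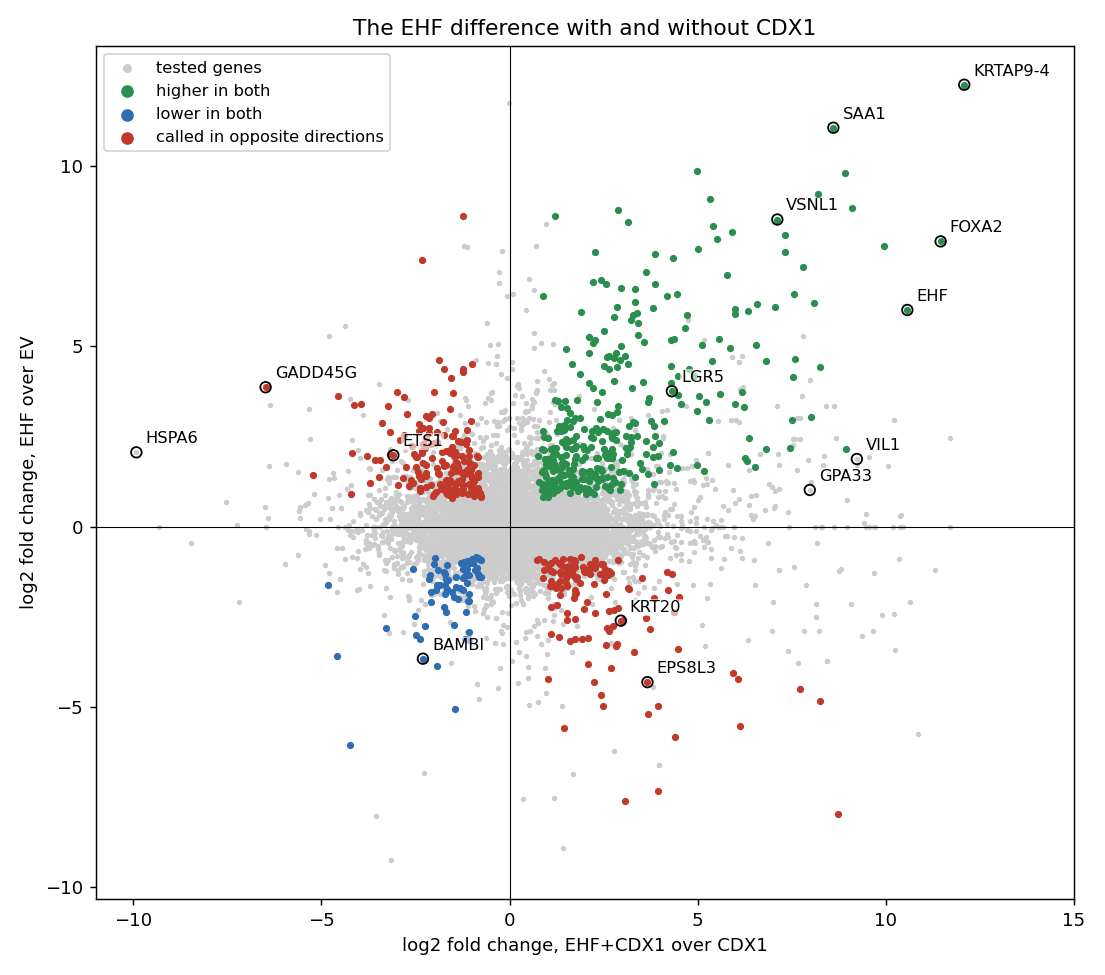
Log2 fold change of each tested gene in EHF+CDX1 over CDX1 cells (horizontal) and in EHF over EV cells (vertical), with rings at named genes. The 340 genes higher in both, among them KRTAP9-4, SAA1 and FOXA2, are at the upper right, the 72 lower in both at the lower left, and genes called in opposite directions, such as KRT20 and GADD45G, in the other corners.

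The motifs of the promoters shown at the start were counted in 12089 tested genes with a RefSeq promoter (GRCh38.p14, 250 bases before to 50 after the start), on both strands and with no test. TTTAT was in 22.1% of all of them and in 33.8% of the 541 that rose with HCT116 EHF+CDX1 libraries above all 9 others, against 19% of the 2061 that rose with HCT116 CDX1 libraries below all 9 others. The median GC content of these promoter groups was 65.0%, 61.3% and 66.0%. The share with TTTAT was 21.8% in all genes that rose and 26% in all genes that fell. It was 51.4% in the interferon-stimulated genes that rose and 38.1% in the heat shock genes that fell. A share above that of all promoters was thus not particular to the 541, since genes that fell had it too. TTTAT on the reverse strand can overlap a TATA box, and the part of base composition in these shares was not tested. GGAAGT was in 26.4% of all promoters, in 22.0% of those of genes that rose and in 27.1% of those of genes that fell. GAAA followed after 2 bases by GAAA was in 2.79% of all promoters, in 9.98% of the 541 and in 25 of 37 (67.6%) interferon-stimulated genes that rose. GAA followed after 2 bases by TTC, a motif added after the data were seen, was in 4.67% of all promoters and in 10 of 21 (47.6%) heat shock genes that fell. These letters do not show that any factor binds there.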

How the data were processed

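RNA-seq of poly(A) RNA was measured in 12 libraries, 3 of each of 4 HCT116 lines, grouped by their labels. The authors deposited raw read counts per gene and log2 RPKM values, the latter made with voom and quantile normalization. Per the study's methods and the submitters' processing notes, reads were aligned to GRCh38/hg38 with Subread 2.0.0 and unique reads were counted over RefSeq exons with featureCounts 2.0.0. Per the study's methods the libraries were made with a directional kit, but the strand setting of the counting is not given in the sources used here. Whether the counts tell overlapping and antisense genes apart is thus not known.

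From the deposited counts, 15853 of 28395 genes with at least 0.5 CPM in at least 3 libraries were tested with edgeR 4.0.16 (R 4.3.3) on all 12 libraries with TMM normalization. A gene was called where glmTreat, set to 1.5-fold, gave a p of 0.05 or less after Benjamini-Hochberg adjustment. That fit's quasi-likelihood test against a zero difference gave the adjusted p and standard error of single genes. A gene with no read in a line is given as at least N-fold, counted against 3 reads over that line, and a gene with 1 to 3 reads as a ratio with its exact counting interval, which covers counting error only.

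The members and lists were chosen with earlier results of these data known. Named were genes the study names, the 10 highest and 10 lowest called genes with a mean of at least 1 log2 CPM, up to 4 genes per list, and the 5 highest and 5 lowest genes shared with HCT116 EHF over HCT116 EV cells. Of the 10 highest, 1 gene and some members of the lists are not reported here, and other genes in the text were named after their values were seen. Total counts ran from 13523007 to 74186741, where 3 counts are 0.207 and 0.0375 CPM. On simulated counts with these libraries, 28 of 100 genes changed 2-fold and 96 of 100 changed 4-fold were called, with 1 of 15653 unchanged genes. Only these changed genes differed between the lines compared in the simulation, whereas 22.3% of genes were called higher and 18.7% lower in the data. The simulated rates therefore do not carry over to the data. Alternatives used limma 3.58.1 (voom with quantile normalization, and the deposited log2 RPKM values), DESeq2 1.42.0, other scalings, filters and thresholds, thinned counts, a replicate block, and fits without single libraries.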

Additional observations from a re-analysis of the deposited data

Results flagged for a closer look

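The EHF difference with CDX1 (HCT116 EHF+CDX1 minus CDX1) and without it (HCT116 EHF minus EV) differed for 15 named genes with more than 3 reads in every line that were called in opposite directions or are named by the study, by edgeR's quasi-likelihood test of the difference with Benjamini-Hochberg adjustment. Genes picked for opposite calls were chosen on these same libraries. Their difference follows from that choice, so that their values and adjusted p are a description only. Values are the log2 difference with CDX1 minus that without it. It was positive for the keratin genes KRT20 (5.57 ± 0.37, adjusted p = 3.04e-07) and KRT23 (6.76 ± 0.29, adjusted p = 2.09e-08), for EPS8L3 (7.98 ± 0.60, adjusted p = 6.97e-07) and for the ETS factor ELF5 (6.78 ± 0.90, adjusted p = 5.56e-05), which rose with CDX1 and fell without it. For ELF5 the rise rests on 44 against 4 reads and was lost with limma voom (0.71, adjusted p = 0.977) and without HCT116 EHF+CDX1 replicate 1 (2.38, edgeR adjusted p = 0.0541). It was also positive for VIL1 (7.35 ± 1.54, adjusted p = 0.00149), GPA33 (6.96 ± 1.0, adjusted p = 0.0001) and CDH17 (6.51 ± 0.63, adjusted p = 4.86e-06), which were called only with CDX1. It was negative for GADD45G (-10.35 ± 0.56, adjusted p = 8.00e-08), ETS1 (-5.07 ± 0.29, adjusted p = 1.07e-07), CD14 (-5.16 ± 0.65, adjusted p = 3.52e-05), the peptide hormone gene ADM (-4.32 ± 0.39, adjusted p = 2.98e-06) and the small nuclear RNA RN7SK (-3.53 ± 0.29, adjusted p = 1.46e-06), which fell with CDX1 and rose without it. For GATA6 (-1.66 ± 0.15, adjusted p = 3.53e-06) and SOX9 (-1.38 ± 0.14, adjusted p = 7.63e-06) the genes rose without CDX1 and were not called with it, and ELF3 (-1.15 ± 0.27, adjusted p = 0.00343) fell with CDX1 and was not called without it. Mean levels in HCT116 EV, EHF, CDX1 and EHF+CDX1 cells were 4.62, 11.4, 22.6 and 17.75 CPM for GATA6. In the same order they were 60.4, 171.8, 155.1 and 168.9 CPM for SOX9 and 2.81, 0.214, 0.0327 and 0.345 CPM for ELF5. For ETS1 they were 4.36, 17.7, 149.9 and 17.5 CPM. The HCT116 CDX1 libraries lay above all 9 others for GADD45G, ETS1, CD14, ADM and RN7SK, and below all 9 others for KRT23 and ELF5. The CDX1 level differed within one of these comparisons and not within the other, and its part was not tested.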

How the results depend on the processing

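No gene called in HCT116 EHF+CDX1 over CDX1 cells was called in the opposite direction under any alternative run. With total counts only, 1765 genes were lower in place of 2970 and 46 in place of 72 were lower in both comparisons. The test against no change gave 5531 higher and 5122 lower, 2369 and 2401 in HCT116 EHF over EV cells, and 881 and 715 in both. The test against 2-fold gave 2132 and 1475, 492 and 189, and 180 and 18. Genes higher in both numbered 215 with limma voom and 196 with the deposited log2 RPKM, and genes lower in both 42 with DESeq2 and 42 with thinned counts. Without HCT116 EV replicate 3, 1501 genes were higher in HCT116 EHF than EV cells. Leaving out each compared library in turn gave 3165 to 3326 higher and 2594 to 2822 lower genes, 840 to 886 and 369 to 403 in HCT116 EHF over EV cells, and 305 to 330 and 52 to 59 in both. Of the endothelial and fibroblast list, the median became -0.14 with thinned counts, and the cause was not tested. Of 147 named genes, 13 lost a call under at least 1 alternative, ELF3 among them, and 2 (CDX2 and GATA6) gained one.

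Compared libraries with the same replicate number did not deviate together from their line means over all tested genes (correlations of 0.0156, 0.0079 and 0.0069). This measure cannot tell whether they were prepared together, since much of each deviation may be counting error. With the replicate block, 3498 genes were higher and 2938 lower, and 322 and 55 were shared with HCT116 EHF over EV cells.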
